A study of Homo sapiens with 8 samples.

Results

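The solute carriers (SLC) are membrane proteins that move amino acids, ions, metals, sugars, nucleotides and vitamins across the plasma membrane and the membranes of organelles. The members described here are the peaks of the authors' deposited table whose gene symbol is SLC followed by a digit, with SLC7A1, SLC7A5 and SLC7A11 left out. They number 413 of 22506 peaks and lie in 116 of 6326 genes. The 3 genes left out hold 31 more peaks. One of the 116 genes, SLC2A4RG, encodes a transcription factor named for the transporter gene it regulates, and was kept because the rule uses the symbol.

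Some work at the cell surface, where they import nutrients and export waste, and others in lysosomes, the Golgi or mitochondria. Argonaute 2 (Ago2) holds a microRNA and pairs its seed, a short stretch near the 5' end, with sites that lie mostly in 3' UTRs. Binding usually lowers translation or shortens the life of the mRNA.

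RNA bound to Ago2 was crosslinked and pulled down with the protein (CLIP) in 293S cells, a line derived from the human embryonic kidney line HEK293. Control cells had no treatment, and the other cells were exposed to 20 µg/mL emetine for 60 minutes. Emetine is an alkaloid that stops ribosomes during elongation. Each treatment was 1 culture, split into 3 CLIP libraries, each with an Ago2 antibody from another maker, and 1 RNA-seq library, so that all tests below measure the spread between aliquots and antibodies and not between cultures. The deposited table has no column per library. The whole reads of the 3 libraries of a treatment were recovered from its values for all 413 SLC peaks, but which antibody made which library is not known. The same 3 antibodies (Abnova, Santa Cruz and Sigma) were used in both treatments, so the design is paired by antibody. Because these pairs could not be assigned, the main tests are unpaired and leave differences between antibodies in the error. Libraries are numbered within a treatment by falling weight of 1 read in the normalisation, and no label links libraries of the same number.

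Over all recovered peaks a library held 39536 to 117544 reads, and library 1 of each treatment had the fewest. Peaks in noncoding exons, none of them SLC peaks, held 45.7%, 6.25% and 13.6% of the reads of emetine libraries 1, 2 and 3 against 43.1%, 6.41% and 13.1% in the control, so that same-numbered libraries were alike in this share. Of 7 intermediate filament genes typical of HEK293-derived lines, VIM and NEFL had peaks, and of 16 markers of other cell types 0 had a peak. Values of 3 libraries are given below in the order 1, 2 and 3, those of emetine before those of the control. The SLC peaks held 248, 1693 and 1398 reads with emetine against 326, 2015 and 1664 in the control.

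Ago2 peaks on SLC transcripts were thin and spread over many genes. The median SLC peak held 15 reads over the 6 libraries, as did the median of all peaks. By region, 219 SLC peaks (53.0%) lay in 3' UTRs, 177 (42.9%) in coding sequence and 17 (4.12%) in 5' UTRs. Over all peaks these shares were 57.6%, 33.2% and 4.95%. The median SLC gene held 36.5 reads, from 11 in the lowest to 316 in SLC20A1, and the 10 genes with the most reads held 33.9% of the SLC reads. These are counted reads, not divided by transcript length.

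Few SLC peaks were seen in all libraries. Reads came from 1 library in 135 peaks, from 2 in 127, from 3 in 85, from 4 in 44, from 5 in 18 and from all 6 in 4. Peaks with reads in at most 2 libraries made up 63.4% of the SLC peaks and 54.7% of all peaks. Those with reads in all 6 made up 0.969% and 4.76%. In listed genes for pumps, channels and other transporters outside the SLC families the shares were 61.9% and 1.59%, and in noncoding exon peaks 15.3% and 36.5%. The 4 SLC peaks seen in every library lay in SLC17A5 (the lysosomal sialic acid exporter), SLC22A5 (the carnitine importer), SLC25A28 (mitoferrin-2, a mitochondrial iron importer) and SLC25A29 (a mitochondrial carrier of basic amino acids). In addition, 70 SLC peaks overlapped another peak of their gene and 56 had the same 6 read numbers as another peak of the transcript, so neighbouring peaks are not independent counts.

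Seed matches in the 3' UTRs of SLC genes were searched because the study asked about Ago2 and microRNA pairing. The 6 mature microRNAs, from RefSeq on GRCh38.p14, stand for families that are expressed in many human cell lines, and their abundance in these cells was not measured here. They are shown with the seed, bases 2 to 8, in capitals.
miR-17-5p: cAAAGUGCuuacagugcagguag
miR-19b-3p: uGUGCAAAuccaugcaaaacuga
miR-92a-3p: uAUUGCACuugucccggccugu
let-7a-5p: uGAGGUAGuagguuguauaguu
miR-16-5p: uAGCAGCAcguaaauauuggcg
miR-30a-5p: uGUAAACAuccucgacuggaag
The 3 top ones come from one cluster on chromosome 13, at chr13:91350618-91350640, chr13:91351245-91351267 and chr13:91351361-91351382, all on the plus strand.

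The 7-base seed match was counted on the sense strand in the annotated 3' UTR of 106 SLC genes and of 5774 genes with peaks in all. The transcript taken for a gene may have a shorter 3' UTR than the one that holds the peaks. For SLC4A7 it had 158 bases, yet 7 3' UTR peaks with 125 reads are listed. For miR-17 (GCACTTT), 34 SLC UTRs (32.1%) held it, against 26.5% of all UTRs and 28.1% of UTRs of like length, those within 0.8 to 1.25 times the length of an SLC UTR. For miR-19b (TTTGCAC) the shares were 23.6%, 18.3% and 19.5%, and for let-7a (CTACCTC) 13.2%, 10.8% and 11.6%, in the same order. For miR-16 (TGCTGCT) the SLC share was 28.3% and that of UTRs of like length 28.0%. SLC shares were the lower ones for miR-92a (GTGCAAT), with 12.3% against 15.0%, and for miR-30a (TGTTTAC), with 19.8% against 22.7%. The matches of miR-17 and miR-19b can overlap in a UTR. These shares are a description of the UTR sequence and were not tested. The 75 SLC genes with a 3' UTR peak had a median 3' UTR of 1776 bases and the other 31 of 977 bases. Whether UTR length bears on peaks or matches was not tested.

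Windows of 26 bases around matches followed by A, the form known to be bound most firmly, are shown for 4 of the SLC genes with the most 3' UTR reads, with the match and the A in capitals. SLC36A1, whose 3' UTR peaks had reads in the control alone, is one of them.
SLC38A2, miR-30a: tagaattactTGTTTACAtccaacaa
SLC30A7, miR-17: gtacattaagGCACTTTAtaaatgga
SLC30A7, miR-19b: ctgtttaggcTTTGCACAaatacaat
SLC6A8, miR-19b: aggcttgtatTTTGCACAttttataa
SLC36A1, miR-19b: tgttttggggTTTGCACAtggatcgt
SLC36A1, miR-30a: agtgctcggtTGTTTACAatcagtgg
On GRCh38 these lie at chr12:46359811-46359836 (minus strand), chr1:100978722-100978747, chr1:100976302-100976327, chrX:153695911-153695936, chr5:151492306-151492331 and chr5:151489466-151489491 (plus strand). The 3' UTR annotated for SLC30A7 is 6580 bases long and that of SLC36A1 4127 bases. SLC30A7 has another match followed by A for miR-19b and also such a match for miR-92a. SLC36A1 has another for miR-30a. These further matches are not shown. The peaks are given on hg19, so whether a window lies under a peak was not determined.

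The first comparison asked whether Ago2 reads on SLC transcripts differed with emetine. No SLC peak and no SLC gene passed the test. With limma on log2(reads × weight of 1 read + 1), fitted over all peaks, 0 of 413 SLC peaks had an adjusted p under 0.05 (background over all peaks 0.0%), with 0.784 as the smallest value. No SLC peak reached an unadjusted p of 0.05 either (0 of 413, background 1.07%). With limma-voom 0 SLC peaks passed after adjustment and 1 before it (background 1.46%). Summed over the peaks of a gene, 0 of 116 SLC genes passed (background 0.0%) with a smallest limma adjusted p of 0.799, and 4 had an unadjusted p under 0.05 (background 1.87%). With limma-voom 0 SLC genes passed (background 0.0158%), and 5 did before adjustment (background 4.67%). The median standard error of a peak's log2 change was 2.06, so that even large changes of single peaks could not be told from the spread between libraries.

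Taken as a list, SLC peaks were about evenly divided. The log2 change was above 0 in 196 peaks and below 0 in 217, which is 47.5% higher, against 50.2% of all peaks. Its median was -0.08, against 0.01 over all peaks. The median of the authors' deposited ratio, which is relative to RNA, was 0.02 as log2 for SLC peaks and 0.05 for all peaks. Counted in reads, emetine libraries held 3339 SLC reads and controls 4005, a depth-scaled ratio of 0.926 (95% exact interval 0.885 to 0.97), while all peaks together had 1.03. Such intervals cover counting error at most. Overlapping peaks that list the same reads are counted more than once in them. Intervals of the list, classes and genes with such peaks are thus too narrow even for counting error. The sign of the median was not stable, as it was 0.60 among the 151 SLC peaks with reads in at least 3 libraries, 0.29 without emetine library 1 and 0.11 without control library 3. Summed by gene, the list leaned the other way, with 66 SLC genes higher and 50 lower at a median log2 change of 0.25. Over all genes 3224 were higher and 3089 lower, at a median of 0.04.

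The share of all peak reads that lay in SLC peaks was 0.61%, 1.62% and 1.44% with emetine against 0.825%, 1.71% and 1.61% in the control. The mean was 1.22% ± 0.538 with emetine and 1.38% ± 0.487 in the control (SD, n = 3, two-sided p = 0.6 by exact permutation, adjusted 1.0). The 2 treatments overlapped, and in each it was library 1 that was low. In the deeper libraries alone the means were 1.53% and 1.66%. Without peaks in noncoding exons, the shares were 1.12%, 1.73% and 1.67% against 1.45%, 1.83% and 1.86%. Number by number, the emetine share was the lower one in 3 of 3, with differences of -0.214, -0.097 and -0.167 percentage points, and it was so without noncoding exons too. Taken as pairs this has a two-sided p of 0.25 by exact permutation, the smallest that 3 pairs can give. Unpaired, 3 against 3 libraries cannot go below 0.1.

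Since emetine acts on translating ribosomes, reads in coding sequence were compared too. Coding peaks held 40.3%, 40.9% and 41.9% of SLC reads with emetine against 48.5%, 38.2% and 39.5% in the control. The means were 41.0% ± 0.81 and 42.0% ± 5.61 (SD, n = 3, two-sided p = 1.0 by exact permutation, adjusted 1.0). Peaks in 3' UTRs held 53.2%, 54.9% and 53.8% against 35.0%, 58.8% and 57.6% (two-sided p = 1.0 by exact permutation, adjusted 1.0). Control library 1, with 326 SLC reads, set both control means apart from those of its deeper partners. In the deeper libraries alone, coding sequence held 41.4% with emetine against 38.8% in the control, and 3' UTRs held 54.3% and 58.2%. For all peaks outside noncoding exons, the coding share was 31.0%, 36.2% and 32.9% with emetine against 30.2%, 28.9% and 27.7% in the control (two-sided p = 0.1 by exact permutation, the smallest possible).

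**Figure D1:**
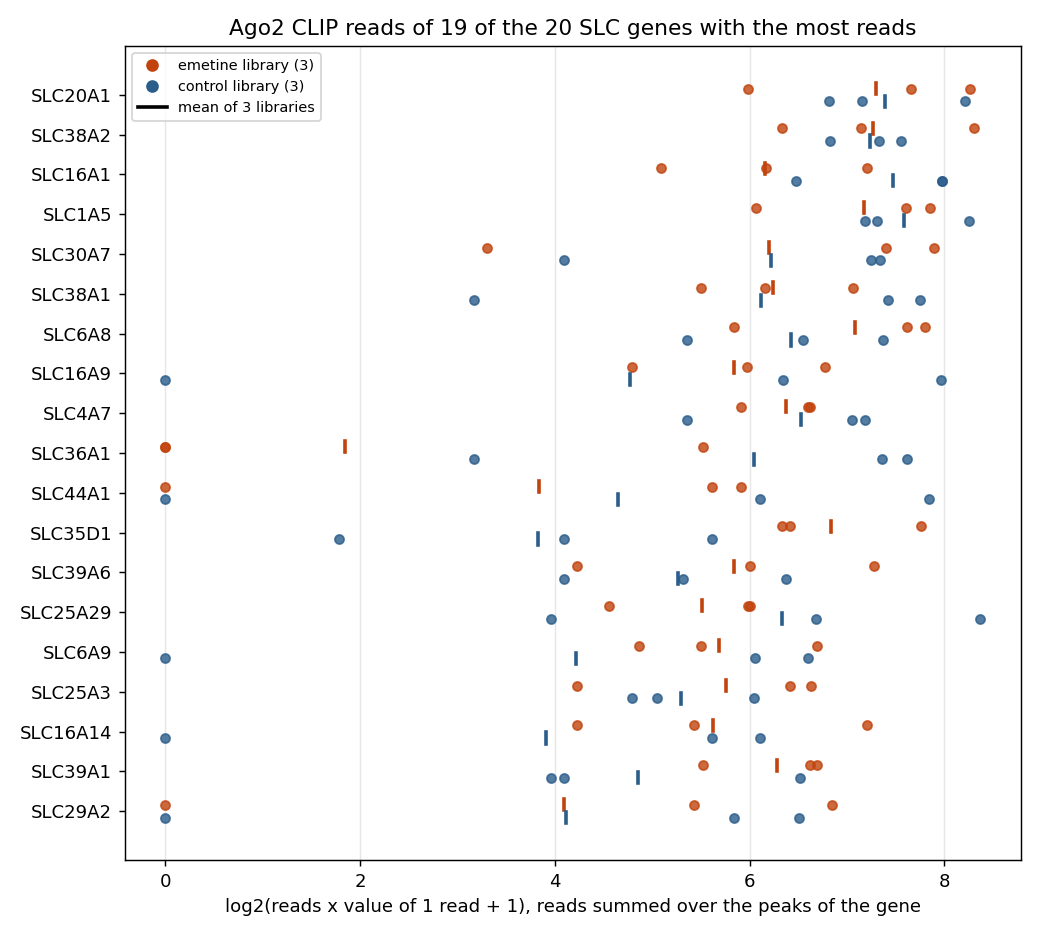
Normalised Ago2 CLIP reads, as log2(reads × weight of 1 read + 1) summed over the peaks of a gene (x axis), for 19 of the 20 SLC genes with the most reads (y axis). Each point is 1 library, 3 per treatment, and short bars are means of 3 libraries. The treatments overlap for most of these genes. For SLC35D1 the 3 emetine points lie above the 3 control points, and for SLC36A1 2 of the 3 emetine points lie at 0.

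Most single peaks named below were picked for extreme changes or after their values were seen, so their changes are overstated. Amino acid transporters carried the most SLC reads. In this class, 43 of 90 peaks were higher and 47 were lower, and the median log2 change was -0.03. SLC38A2, which imports neutral amino acids with sodium, held 9, 105 and 50 reads with emetine against 14, 66 and 66 in the control over 16 peaks. The treatments overlapped, with a log2 change of 0.03 (SE 0.84). In SLC38A2, 3 pairs of overlapping peaks listed the same reads, and with each pair counted once the totals were 136 and 116 reads. SLC1A5, a glutamine and neutral amino acid exchanger with 17 peaks, held 26, 22 and 69 reads against 38, 51 and 65, again with overlap.

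SLC38A1, a close relative that also takes up glutamine, had 10 peaks, all in the 3' UTR, with 5, 44 and 25 reads against 1, 76 and 70. Single sites within this UTR went opposite ways. The peak at chr12:46582237-46582264 (hg19, minus strand) held 0, 1 and 2 reads with emetine against 0, 43 and 23 in the control, so that control libraries 2 and 3 stood above all others. The peak at chr12:46580113-46580143, on the same UTR, held 4, 5 and 7 reads with emetine against 0, 0 and 2 in the control, with no overlap between the treatments. Its log2 change was 3.67 (SE 1.98), with a limma adjusted p of 0.784.

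SLC36A1, a proton-coupled amino acid exporter of lysosomes that also sits at the plasma membrane, held 0, 0 and 16 reads with emetine against 1, 69 and 67 in the control. Control libraries 2 and 3 were high, and the 16 emetine reads all came from library 3 and from its single coding peak. The 8 peaks of its 3' UTR held reads in control libraries alone. Of the 9 peaks, 7 had reads in 1 library only. The fullest, at chr5:150871566-150871589 on the plus strand, held 0, 16 and 9 control reads. Read totals had a ratio of 0.13 (95% exact interval 0.0721 to 0.218), with a log2 change of -4.21 (SE 1.91, limma adjusted p = 0.799, unadjusted 0.028). With each library left out it ranged from -3.29 to -6.05, and the unadjusted p was above 0.05 in 4 of 6 such fits, up to 0.276 without control library 2. Its RNA held 155 and 62 reads, or -0.02 as a log2 ratio (95% exact interval -0.46 to 0.43).

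SLC6A8, the creatine importer, held 22, 74 and 20 reads against 5, 58 and 38, with 8 of 11 peaks higher. Its 3' UTR peak at chrX:152961804-152961835 held 2, 18 and 2 reads against 0, 0 and 3. Of 30-base runs of its transcript, 17.9% also occur in the pseudogene SLC6A10P, so its reads may be shared. SLC6A9, the glycine importer, held 5, 34 and 10 reads against 0, 34 and 27. SLC15A4, a lysosomal exporter of histidine and peptides, had 3, 9 and 8 reads against 5, 0 and 0. SLC38A10 held 10, 1 and 4 reads against 20, 0 and 2, most of them in library 1 of each treatment.

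**Figure D2:**
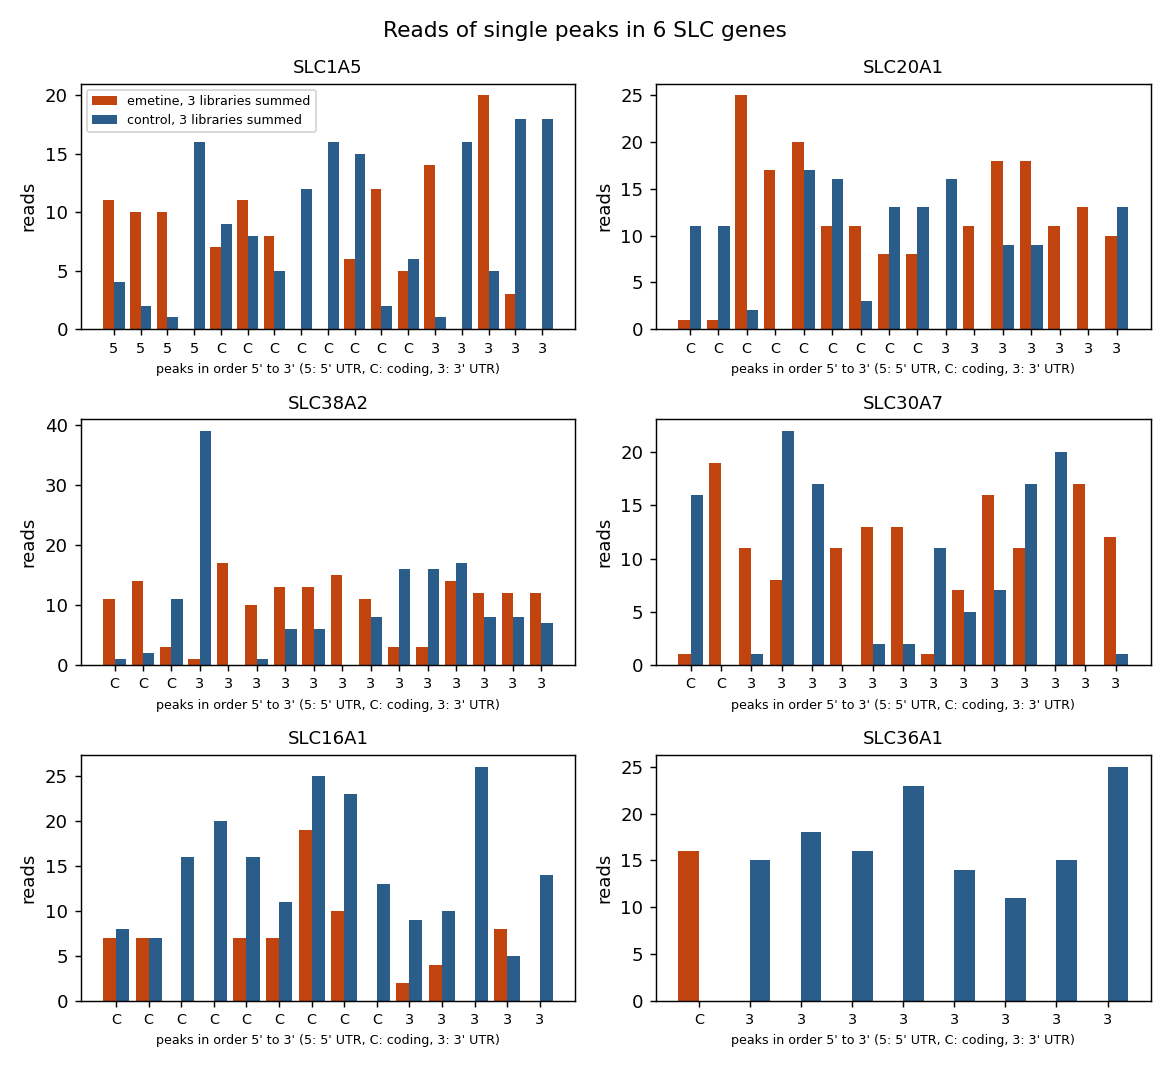
Reads of each peak (y axis, 3 libraries summed) in order from 5' to 3' along 6 SLC genes (x axis, 5 for 5' UTR, C for coding, 3 for 3' UTR), emetine and control side by side. Neighbouring peaks of a gene point opposite ways in SLC1A5, SLC20A1, SLC38A2 and SLC30A7, and 8 of 9 SLC36A1 peaks show control reads alone. Overlapping peaks can show the same reads.

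Carriers of inorganic ions, protons and phosphate had 70 peaks, of which 27 were higher and 43 lower, at a median log2 change of -0.59. The ratio of their read totals was 0.79 (95% exact interval 0.705 to 0.884). Summed by gene, 7 were higher and 12 lower, at a median log2 change of -0.15. SLC20A1, a sodium-phosphate cotransporter, held 7, 67 and 109 reads against 37, 50 and 46 over 16 peaks, 8 higher and 8 lower. With overlapping peaks of the same reads counted once, its totals were 156 and 100. Its 3' UTR peak at chr2:113420821-113420857 held no read with emetine against 2, 11 and 3 in the control. With the emetine total set to a floor of 3 reads, this is 4.8-fold lower. That value allows only for the count of 0 and not for counting error in the control. It had the smallest unadjusted p of any SLC peak, 0.0529, and a limma adjusted p of 0.784.

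SLC4A7, a sodium-bicarbonate cotransporter, held 11, 32 and 21 reads against 5, 51 and 54, with 8 of 10 peaks lower. SLC4A2, an anion exchanger, had 2, 0 and 24 reads against 4, 15 and 34.

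SLC26A2, the sulfate transporter needed for cartilage proteoglycans, held no read with emetine against 5, 14 and 9 in the control. By the same floor this is 8.4-fold lower, a value that again leaves out counting error in the control. SLC26A2 was singled out after its values were seen, as were SLC25A39, SLC29A1 and SLC11A2 below. Its 2 peaks were each read in different control libraries, the coding one in 1 and 3 and the 3' UTR one in 2. The log2 change was -5.07 (SE 2.42, limma adjusted p = 0.799, unadjusted 0.0364), and its RNA had a log2 ratio of -0.09. The unadjusted p was above 0.05 in 4 of 6 fits with a library left out, up to 0.0673 without control library 3. SLC26A6, an anion exchanger with a coding peak at chr3:48670406-48670437, held no read against 0, 12 and 4. SLC8A1, the sodium-calcium exchanger, held 0, 14 and 0 reads against 0, 12 and 5.

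Metal transporters had 78 peaks, 38 higher and 40 lower, at a median log2 change of -0.04. SLC30A7, which moves zinc into the Golgi, held 1, 79 and 60 reads against 2, 57 and 62 over 15 peaks. The treatments overlapped almost fully, with a log2 change of -0.02 (SE 1.11). Single peaks along its long 3' UTR did not follow the sum: chr1:101446305-101446344 held 20 reads, all in control library 3, and chr1:101446847-101446875 held 17, all in emetine library 3. The zinc importers SLC39A6 and SLC39A1 held 2, 21 and 55 reads against 2, 29 and 16, and 11, 34 and 16 against 2, 32 and 6. SLC11A2, an importer of iron and other divalent metals, had 2, 10 and 9 reads against 5, 19 and 24. Its depth-scaled values did not overlap, at a log2 change of -1.04 (SE 1.45).

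Mitochondrial carriers had 51 peaks in 23 genes, 30 higher and 21 lower, at a median log2 change of 0.60. The ratio of read totals was 1.12 (95% exact interval 0.989 to 1.27). SLC25A11, the oxoglutarate-malate carrier, held 5, 19 and 26 reads with emetine against 0, 0 and 1 in the control, so all 3 emetine libraries lay above all controls. Its coding peak at chr17:4842157-4842194 held 0, 19 and 18 reads and its 3' UTR peak 5, 0 and 8. The log2 change was 5.26 (SE 2.21, limma adjusted p = 0.799, unadjusted 0.0171), the smallest p of the SLC genes. The unadjusted p was 0.0766 without emetine library 2 and 0.0971 without emetine library 3. The ratio of totals was 55.6 (95% exact interval 9.52 to 2240.0). Its RNA held 144 and 79 reads, or -0.48 as a log2 ratio (95% exact interval -0.88 to -0.06).

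SLC25A22, a mitochondrial glutamate carrier, held 4, 37 and 0 reads against 0, 0 and 1, with most of them in emetine library 2. SLC25A29 held 7, 21 and 8 reads against 41, 36 and 6. Its 5' UTR peak at chr14:100772588-100772614 was read in every library, with 7, 9 and 8 against 30, 35 and 6, and control library 3 lay among the emetine values. SLC25A28 held 3, 1 and 15 reads against 10, 45 and 18, with no overlap after scaling. Its log2 change was -2.20, and -1.17 without emetine library 2. SLC25A3, the phosphate carrier, held 2, 28 and 35 reads against 4, 23 and 11. SLC25A39, which supplies mitochondria with glutathione, had 4, 21 and 14 reads against 2, 9 and 10, with all 4 peaks higher and no overlap. SLC25A5, the adenine nucleotide translocator, held 2, 12 and 22 reads against 3, 9 and 16, and 10.3% of its 30-base runs also occur in the pseudogene SLC25A5P3.

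Carriers of nucleotide sugars and nucleosides had 34 peaks, 16 higher and 18 lower, at a median log2 change of -0.16 and a ratio of read totals of 1.45 (95% exact interval 1.23 to 1.71). SLC35D1 held 111 of the 342 emetine reads and 20 of the 262 control reads of this class. It encodes the carrier that brings sugar nucleotides into the endoplasmic reticulum for proteoglycan synthesis. By library it held 9, 72 and 30 reads with emetine against 2, 17 and 1 in the control, with no overlap after scaling. Of its 8 peaks 7 were higher, 4 of the 8 being coding and 4 in the 3' UTR. Totals had a ratio of 6.17 (95% exact interval 3.81 to 10.5), with a log2 change of 3.01 (SE 1.39, limma adjusted p = 0.799, unadjusted 0.0306). It was 1.99 without control library 3 and 3.90 without control library 2, and the unadjusted p was above 0.05 in 4 of 6 fits with a library left out. Its RNA held 868 and 276 reads, or 0.31 as a log2 ratio (95% exact interval 0.11 to 0.51). Its 3' UTR peak at chr1:67465953-67465984 on the minus strand held 3, 18 and 0 reads against none.

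SLC29A1 and SLC29A2 are nucleoside transporters of the plasma membrane. SLC29A1 held 5, 16 and 19 reads against 5, 14 and 12, which do not overlap after scaling although the log2 change was only 0.42 (SE 1.36). SLC29A2 held 0, 38 and 15 reads against 7, 0 and 37, and its 3' UTR peak at chr11:66130013-66130057 held no read against 2, 0 and 25. SLC35F1, whose substrate is not established, held 0, 13 and 0 reads against 0, 50 and 15.

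Carriers of sugars and carboxylates had 52 peaks, 22 higher and 30 lower, at a median log2 change of -0.40. The ratio of their read totals was 0.749 (95% exact interval 0.654 to 0.857). Summed by gene the direction turned, with 9 genes higher, 5 lower and a median log2 change of 0.72. SLC16A1 alone held 71 of the 364 emetine reads and 203 of the 540 control reads of this class. SLC16A1, which exchanges lactate and pyruvate with the medium, held 8, 11 and 52 reads with emetine against 11, 89 and 103 in the control over 14 peaks. Control libraries 2 and 3 were the highest after scaling, and control library 1 lay among the emetine values. Totals had a ratio of 0.389 (95% exact interval 0.292 to 0.512), with a log2 change of -1.32 (SE 0.95, limma adjusted p = 0.799). Its 3' UTR peak at chr1:113456321-113456351 held no read with emetine against 0, 17 and 9 in the control. SLC16A9, a carnitine carrier, had 3, 36 and 22 reads against 0, 88 and 33, so that its totals were lower with emetine while the mean log2 change was 1.07, because control library 1 was at 0. SLC16A14 had 2, 14 and 52 reads against 6, 0 and 28. SLC16A10, an aromatic amino acid carrier placed here by its family number, held 0, 9 and 12 reads against none. SLC5A3, the myo-inositol importer, held 0, 0 and 12 reads against 0, 53 and 25.

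Carriers of vitamins, lipids, choline and organic ions had 36 peaks, 20 higher and 16 lower, at a median log2 change of 0.21. SLC44A1, a choline transporter, held 0, 16 and 21 reads against 0, 81 and 28. SLC22A5 held 1, 25 and 10 reads against 1, 46 and 4, and SLC22A23, whose substrate is not established, 0, 38 and 20 against 0, 0 and 21. The transcription factor gene SLC2A4RG held 0, 3 and 7 reads against 4, 20 and 12, with no overlap after scaling and a log2 change of -2.70 (SE 1.92, limma adjusted p = 0.799). It was -1.42 without emetine library 1 and -3.61 without emetine library 3. Its 3' UTR peak at chr20:62374664-62374715 held 0, 0 and 3 reads against 4, 10 and 5.

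**Figure D3:**
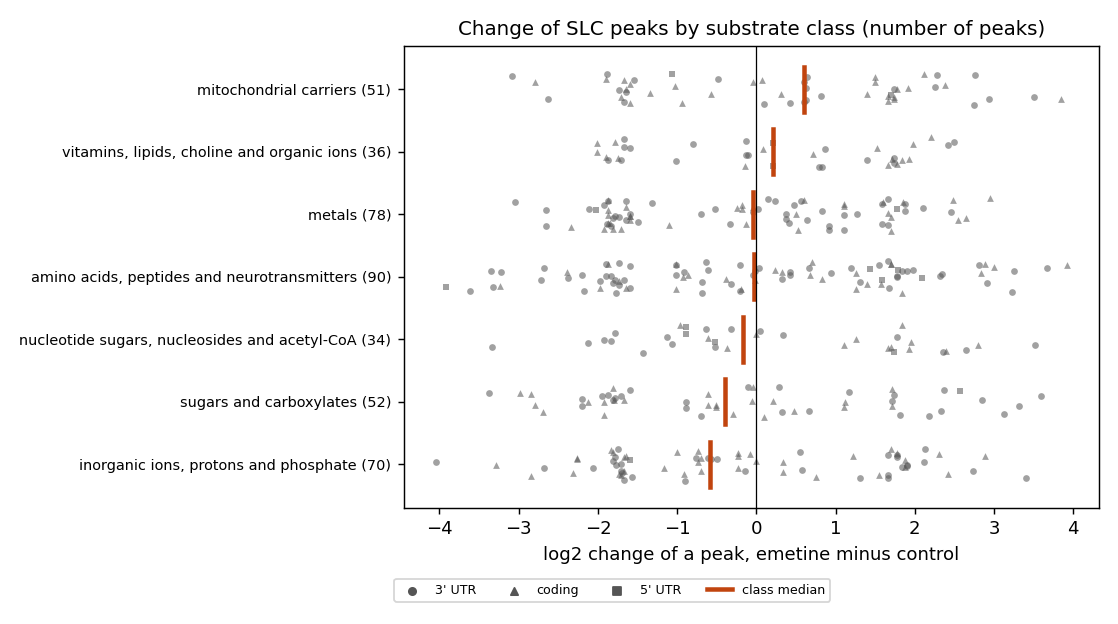
Log2 change of every transporter peak, emetine minus control (x axis), by substrate class (y axis, with the number of peaks). Circles are 3' UTR peaks, triangles coding peaks and squares 5' UTR peaks, and the coloured bar is the class median. Medians run from -0.59 to 0.60 within a spread from about -4 to 4, and the bands left and right of 0 are peaks with reads in 1 library, whose log2 change has a size of 1.6 to 2.12.

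Across the classes, all emetine libraries lay above all controls in 9 SLC peaks (2.55% of all peaks did) and below them in 5 (1.43% of all peaks). For SLC genes the counts were 4 and 4, with 3.01% and 2.19% of all genes. The 4 above were SLC25A11, SLC25A39, SLC35D1 and SLC29A1, and the 4 below were SLC26A2, SLC11A2, SLC25A28 and SLC2A4RG. The place of SLC29A1 among them rests on the weights used. The SLC counts lie near these backgrounds. The 14 peaks held 11 to 34 reads each. Within genes, directions were mixed. Of the 81 SLC genes with at least 2 peaks, 52 had peaks both above and below 0, and so did all 28 genes with at least 5 peaks.

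As context, 34 of 53 listed genes for pumps, channels and other transporters outside the SLC families had 126 peaks. Of these peaks 65 were higher and 61 lower, at a median log2 change of 0.07, and 0 passed the test. Coding sequence held 47.6% of their peaks.

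For RNA there was only 1 library per treatment, which allows no test and no check between replicates. Of the 97 SLC genes with at least 50 RNA reads, 0 were past 2-fold in either direction (background 1.64%). The log2 ratio of emetine to control had a median of -0.08 and an SD of 0.29 across these genes, against 0.01 and 0.35 over 5802 genes. It was above 0 in 34 SLC genes (35.1%) and below 0 in 63, against 51.0% above 0 over all 5802 genes. The exact 95% interval, which covers counting error alone, lay above 0 for 3 SLC genes (3.09%) and below 0 for 17 (17.5%). Over all genes these shares were 13.9% and 13.7%.

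The highest RNA ratio was that of SLC30A1, the zinc exporter of the plasma membrane, with 325 reads with emetine against 70 in the control, or 0.87 (95% exact interval 0.49 to 1.26). Its Ago2 reads were 0, 21 and 9 against 0, 38 and 4. Next were SLC37A4, the glucose-6-phosphate transporter of the endoplasmic reticulum, at 0.61, SLC30A10, a manganese exporter, at 0.53, SLC25A28 at 0.49, SLC16A10 at 0.44 and SLC15A4 at 0.42. Of these 6 genes, the interval left out 0 for SLC30A1 and SLC16A10.

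At the low end, SLC6A9 had 28 and 22 RNA reads, or -0.99 as a log2 ratio (95% exact interval -1.85 to -0.12). SLC4A2 followed at -0.70 (-1.06 to -0.34), then SLC8A1 at -0.68 (-0.99 to -0.36). SLC35B2, the Golgi carrier of the sulfate donor, stood at -0.52, SLC46A1, the proton-coupled folate transporter, at -0.51, and SLC5A3 at -0.51. SLC5A3 was the best counted of these, with 907 and 510 reads and an interval of -0.67 to -0.35.

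**Figure D4:**
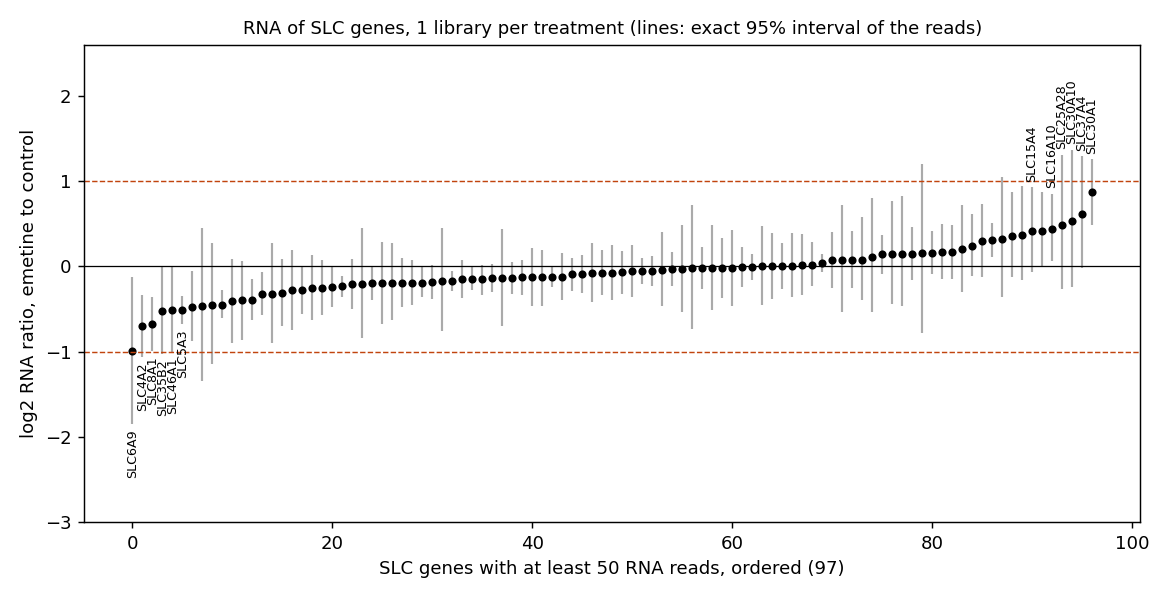
Log2 RNA ratio of emetine to control (y axis) for the 97 SLC genes with at least 50 RNA reads, in rising order (x axis). Points are ratios of 1 library per treatment, grey lines exact 95% intervals of the reads, and dashed lines mark 2-fold. The ratios run from -0.99 for SLC6A9 to 0.87 for SLC30A1, and no point passes a dashed line.

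Ago2 reads were set against RNA reads gene by gene. Every listed SLC peak held at least 11 reads, so a gene with few RNA reads can only have a high value. The normalised CLIP reads per normalised RNA read, which are not divided by length, had a median of 0.0325 in the 97 SLC genes and 0.025 over all genes. They were highest for SLC6A9 at 0.532, SLC25A28 at 0.368, SLC38A10 at 0.289 and SLC25A22 at 0.251, each with fewer than 100 RNA reads over both libraries. They were lowest for SLC25A46, an outer membrane protein of mitochondrial shape control, at 0.00275 and SLC12A2, the sodium-potassium-chloride cotransporter, at 0.0031. SLC39A14, an importer of zinc and iron, had 0.00621, and SLC2A1, the basal glucose importer, 0.00731. SLC12A2 had 1468 and 640 RNA reads and only 0, 0 and 1 Ago2 reads with emetine against 0, 16 and 10 in the control.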

How the data were processed

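Ago2 CLIP (6 libraries) and RNA-seq (2 libraries) of 293S cells were analysed from 1 table. It lists, per the file headers, the place, region and gene of a peak with an average and a ratio of the treatments. Both are logarithms of unstated base. The reads recovered from them (below) require the natural log, so the natural log values of the authors were divided to give log2. The tools in the submitters' processing notes are Bowtie 0.12.8, TopHat and DESeq, and the build is hg19. How peaks were called, and whether starts count from 0 or 1, is not given in the sources used here, so positions are printed as listed.

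The average plus or minus 0.5 times the ratio is a mean of ln(1 + reads × weight) over 3 libraries, less that of the RNA library. Whole reads were recovered for 22493 peaks (99.94%) within 6e-14, a tolerance set after residuals were seen, and 13 peaks were left out. After the values of the 413 SLC peaks were shifted, 0 were matched by chance. The weight of 1 read was 8.86, 3.00 and 2.81 in the emetine and 8.00, 2.82 and 2.43 in the control libraries.

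Tests were limma 3.58.1 (trend, treatment only, no filter) in R 4.3.3 with Benjamini-Hochberg adjustment at 0.05 over all peaks or genes, and exact permutation tests in scipy 1.17.1. Ratios of read totals were scaled by summed inverse weights, with exact binomial 95% intervals. Members, classes and lists were chosen with earlier results of these data known. The microRNA families, the windows shown, the search for shared runs and the trend in limma-voom were chosen after the files were seen. One gene that the rule would name is not reported here. Genes named were the 3 with the most reads per class, the 8 largest and 8 most negative changes among SLC peaks with at least the median reads (1 per gene, so these are overstated by selection), the 6 highest and 6 lowest RNA ratios, the 5 with the most peaks, and the 4 highest and 4 lowest CLIP per RNA values. Of the SLC genes, 109 had a GENCODE v29 transcript through their RefSeq identifier. SLC2A3 shared 38.3% of its 30-base runs with SLC2A14 and SLC25A33 19.8% with another gene; 65 genes shared none. Alternatives covered the added constant, scaling, filters, limma-voom, depth class, the library number as a block, identical peaks and each library left out.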

Additional observations from a re-analysis of the deposited data

How the results depend on the processing

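With every alternative run, 0 SLC peaks and 0 SLC genes passed, including sums with overlapping identical peaks counted once, which was added after the data were seen. The genes without overlap between treatments or with an unadjusted p under 0.05, and the 16 peaks picked as extremes, kept their direction wherever they could be fitted. The way they were picked largely fixed this outcome. A change without overlap, or with no read in 1 treatment, can hardly turn, so this lends these changes no support. The median log2 change of SLC peaks, -0.08, turned to 0.60 among peaks seen in at least 3 libraries (0.22 over all such peaks), to 0.05 with limma-voom, and ranged from -0.46 to 0.29 with each library left out, being 0.29 without emetine library 1 and 0.11 without control library 3. The difference in the SLC share of reads, -0.159 percentage points, ranged from -0.439 to 0.147 with each library left out and turned without emetine library 1 (0.147) and control library 2 (0.00585). The difference in the coding share, -1.0 points, turned to 6.17 among SLC peaks seen in at least 3 libraries and to 2.21 without control library 1, with a range of -2.94 to 2.21. With no minimum of RNA reads, 4 of 116 SLC genes were past 2-fold, against 191 of 6313 genes over all. The 4 were SLC25A33 and SLC29A2 up and SLC16A13 and SLC26A11 down, each with fewer than 50 reads. The causes were not tested. The library number as a replicate block, also added after the data were seen, gave 0 SLC calls (3 peaks and 1 gene in all). At an unadjusted p under 0.05 it had 6 of 413 SLC peaks and 4 of 116 SLC genes. Over all features these were 636 of 22493 peaks and 222 of 6313 genes. Deviations of same-numbered libraries correlated by 0.145, 0.041 and 0.04 over all peaks. Each library correlated best with its own number. This is a hint from the data, as the labels pair the treatments by antibody but not by library number. Outside noncoding exons the values were 0.09, 0.011 and 0.037, and emetine library 2 was nearer to control library 3 (0.026). Depth class as a second term gave 0 SLC calls. Depth, at a median of 15 reads a peak, and 1 culture per treatment limit every comparison.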
